A study of Rattus norvegicus with 9 samples.

Results

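The peroxiredoxin family was described at the mRNA level in H9c2(2-1) cells, a line of myoblasts derived from embryonic heart of the BD1X rat. Its members were chosen by name as Prdx1, Prdx2, Prdx3, Prdx4, Prdx5 and Prdx6, with reads and TPM summed per gene symbol, and they are 6 of the 36856 genes in the tables. RNA sequencing of 9 libraries covered 3 groups of 3: ESW, cells kept for 72 h in medium with energized structured water at a dilution of 0.01; CW, cells given control water at the same dilution and for the same time; and Control, cells without treatment kept in normal growth medium. The medium with either water was replaced every 24 h, and no duration is recorded for Control. All groups are wild type, come from the same line and were grown in DMEM with fetal bovine serum and antibiotics. Whether libraries of the same group are separate cultures is not stated in the labels, so p-values cover the spread among these libraries, part or all of which may be technical.

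Peroxiredoxins are thiol peroxidases: a cysteine in the active site reduces hydrogen peroxide, organic hydroperoxides or peroxynitrite and is oxidised in the process. Most members are then returned to the reduced form by thioredoxin, which in turn takes electrons from NADPH through thioredoxin reductase, and sulfiredoxin repairs members whose cysteine has been overoxidised. The members differ in place. Prdx1, Prdx2 and Prdx6 lie mainly in the cytosol, Prdx3 lies in mitochondria, Prdx4 lies in the endoplasmic reticulum (ER) and is also secreted, and Prdx5 is found in mitochondria, peroxisomes and the cytosol. In heart muscle the family is known as a main route for the removal of mitochondrial and cytosolic peroxide.

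Prdx1 is a known target of the transcription factor NRF2, which binds antioxidant response elements. The promoter windows of the members (300 bases, 250 before and 50 after the gene start, from RefSeq in the build GRCr8) were therefore searched on both strands for TGACNNNGC, the core of that element, whose reverse complement is GCNNNGTCA. Of 5 members with a window, 3 held a match, Prdx1, Prdx4 and Prdx5, while 12.06% of all 33469 windows did (4038 windows). A match of letters is a description of the window and not a binding site, and the counts did not enter any test. The windows of these 3 members are shown in gene orientation, 5′ to 3′, with the match in capitals. All 3 matches lie on the opposite strand, so the capitals read as the reverse complement. Positions are those of the first capital in gene orientation. The capitals of Prdx1 (match TGACTCAGC) begin 135 bases before the start, on chr5:135383656-135383955 (plus strand). Those of Prdx4 (match TGACCAAGC) begin 19 bases after it, on chrX:43878483-43878782 (plus strand). Those of Prdx5 (match TGACTCTGC) begin 1 base before it, on chr1:213531978-213532277 (minus strand).
Prdx1: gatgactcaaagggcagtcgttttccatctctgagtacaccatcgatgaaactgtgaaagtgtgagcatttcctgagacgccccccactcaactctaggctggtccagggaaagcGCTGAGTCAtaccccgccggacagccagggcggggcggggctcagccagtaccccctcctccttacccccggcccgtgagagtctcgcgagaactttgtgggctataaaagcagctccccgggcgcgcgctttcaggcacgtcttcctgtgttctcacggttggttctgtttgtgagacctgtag
Prdx4: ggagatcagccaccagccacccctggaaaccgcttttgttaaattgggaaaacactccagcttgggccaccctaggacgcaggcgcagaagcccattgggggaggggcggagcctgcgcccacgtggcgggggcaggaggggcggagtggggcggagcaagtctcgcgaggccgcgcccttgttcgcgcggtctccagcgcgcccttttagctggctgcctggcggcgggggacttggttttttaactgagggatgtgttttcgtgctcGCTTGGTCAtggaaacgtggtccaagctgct
Prdx5: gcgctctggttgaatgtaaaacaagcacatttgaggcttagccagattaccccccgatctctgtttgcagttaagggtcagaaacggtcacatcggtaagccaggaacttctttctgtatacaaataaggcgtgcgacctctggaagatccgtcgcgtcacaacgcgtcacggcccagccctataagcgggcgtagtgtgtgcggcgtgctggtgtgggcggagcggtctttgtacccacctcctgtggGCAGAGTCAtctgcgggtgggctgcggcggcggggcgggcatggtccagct

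Library totals ran from 26748673 to 48574618 estimated reads, and each library held 10 or more reads for 13913 to 15002 genes. Of the myoblast markers, Myod1 lay at 7.59 to 11.2 CPM (counts relative to the TMM-scaled library total) and Cdh15 at 29.8 to 36.7 CPM. Des lay at 3.88 to 6.65 CPM and Myog at 2.00 to 3.58 CPM. Lower still were Myh3, at 0.966 to 1.89 CPM, and Chrna1, at 0.285 to 0.922 CPM, whereas Myf5 had 2 reads over all libraries. Of the cardiomyocyte markers, Tnnt2 reached 51.4 to 62.3 CPM, Tnni3 lay at 0.457 to 1.22 CPM, and Myh6, Nppa, Nppb, Nkx2-5 and Actc1 stayed under 1 CPM. Control replicate 1 stood apart from the other libraries on the second principal component of log2 CPM (13.0% of the variance), at -22.9. On the first component (24.1%) it lay at -10.9, with Control replicates 2 and 3 at 7.08 and 12.3. ESW replicate 3 was the most extreme library on the first component, at -28.7, with ESW replicates 1 and 2 at -8.79 and -18.9. Values without Control replicate 1 are given for Prdx4 against Control and where the call of a named gene changed without it.

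The order of levels was the same in all 9 libraries: Prdx1, Prdx2, Prdx5, Prdx4, Prdx6, Prdx3, in TPM, a level scaled for transcript length and library total. Prdx1, the abundant cytosolic member, had 1121, 1018 and 1036 TPM in ESW, 1077, 1090 and 1151 TPM in CW, and 1028, 1077 and 1103 TPM in Control. It ranked between 138 and 153 among the 36856 genes in each library. Prdx2, the other cytosolic 2-Cys member and a main peroxidase of red blood cells, lay at 635, 665 and 640 TPM in ESW, at 654, 714 and 700.4 TPM in CW, and at 660, 672 and 680 TPM in Control. The 3 groups overlap for both genes. Prdx5, whose 1 protein chain holds both reacting cysteines, had 503, 478 and 453 TPM in ESW, 478, 495 and 485 TPM in CW, and 482, 497 and 501 TPM in Control. Prdx3, the mitochondrial member, was lowest in every library, with 127, 130 and 136 TPM in ESW, 131, 139 and 140 TPM in CW, and 132, 135 and 138 TPM in Control. Even the lowest member thus ranked between 1111 and 1244.

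No pair of neighbours in this order overlapped over the 9 libraries. Within a library, Prdx1 was 1.53 to 1.76 times as high as Prdx2, Prdx2 1.26 to 1.44 times as high as Prdx5, and Prdx5 1.33 to 1.68 times as high as Prdx4. Prdx4 was 1.25 to 1.79 times as high as Prdx6, and Prdx6 1.52 to 1.88 times as high as Prdx3. The highest library was 1.101 to 1.15 times the lowest for 5 members and 1.31 times for Prdx4. On the log2 CPM scale the standard deviation (SD) over 9 libraries was 0.14 for Prdx4, above that of 93.1% of 8846 genes. These were tested protein-coding genes that averaged 10 CPM or more, without symbols that start with LOC, RGD or AABR. The other 5 members had an SD of 0.05 to 0.06, at the 10.98 to 28.0 percentile, and the median gene had 0.08.

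**Figure D1:**
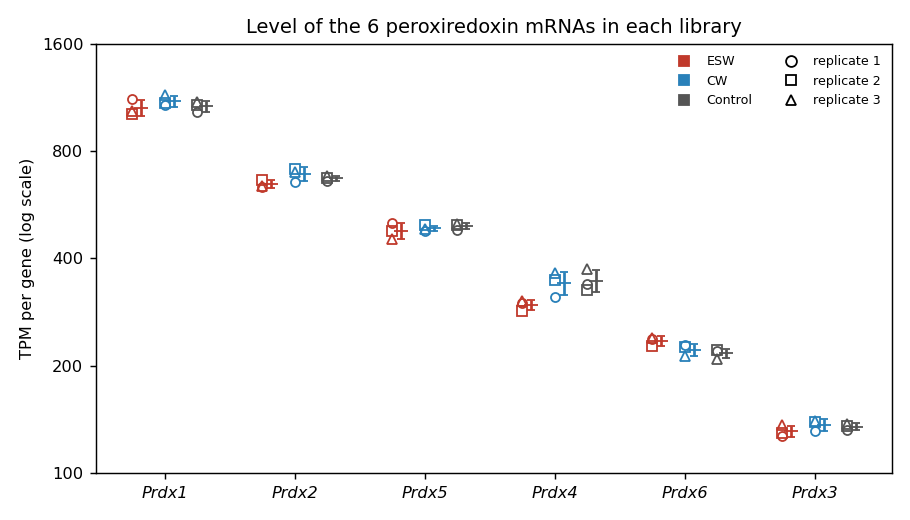
Level of each peroxiredoxin mRNA in TPM (log axis) in the 9 libraries, with ESW in red, CW in blue and Control in grey, and bars for the mean and SD of 3 libraries. The order from Prdx1 to Prdx3 holds in every library, and the groups lie furthest apart for Prdx4.

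By compartment, the cytosolic members Prdx1, Prdx2 and Prdx6 together made up 68.2 ± 0.0439% of the family's summed TPM in ESW, 67.7 ± 0.306% in CW and 66.8 ± 0.489% in Control (SD, n = 3 each). The ER member Prdx4 made up 10.4 ± 0.364% in ESW, 11.4 ± 0.540% in CW and 11.8 ± 0.658% in Control. Its share was 10.2% to 10.8% in ESW libraries and 11.1% to 12.5% in Control libraries, which do not overlap. The share of Prdx3 lay at 4.60%, 4.58% and 4.60% in ESW, CW and Control, and that of Prdx5 at 16.8%, 16.3% and 16.8%. These shares add to a whole, so a lower share of 1 member raises those of the rest.

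Prdx4, the peroxiredoxin of the ER, where it takes part in oxidative protein folding, was the only member called in the test described below. It had 98.4, 94.02 and 97.9 CPM in ESW libraries, 102, 113 and 119.9 CPM in CW libraries, and 112, 109 and 124.5 CPM in Control libraries. Each ESW library lay below every CW and every Control library. Its mean was 96.8 ± 2.39 CPM in ESW, 112 ± 8.97 CPM in CW and 115 ± 8.01 CPM in Control (SD, n = 3 each). The genes were tested with the quasi-likelihood test of edgeR over all 14706 tested genes, and a gene is called below a Benjamini-Hochberg adjusted p of 0.05. Against Control, Prdx4 fell by 16.2% in ESW (95% interval -22.6% to -9.33%), which is -0.26 on the log2 scale (SE 0.05, adjusted p = 0.0074). Against CW it fell by 13.5% in ESW (95% interval -20.2% to -6.32%), which is -0.21 on the log2 scale (SE 0.06, adjusted p = 0.0243). Both comparisons use the same 3 ESW libraries. A single test over the 3 groups gave an adjusted p of 0.0116 for Prdx4 and 0.254 to 0.659 for the other members, beside 9.58% of all genes called.

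Thus 1 of 6 peroxiredoxins was called in ESW against Control, where 8.04% of all tested genes were called (4.76% higher and 3.28% lower). In ESW against CW 1 of 6 was called, where 8.14% of all genes were (4.15% higher and 3.99% lower). The call against Control was lost without Control replicate 3, at a log2 fold change of -0.20 (adjusted p = 0.0516), and without Control replicate 1 it stood at -0.28 (adjusted p = 0.0048). The call against CW was lost without ESW replicate 2 (adjusted p = 0.104), ESW replicate 3 (0.0759), CW replicate 2 (0.102) or CW replicate 3 (0.155), with log2 fold changes of -0.22 to -0.16 and the direction kept. It was also lost with offsets for effective length (adjusted p = 0.0604). On log2(TPM + 1) neither call held, with -0.23 (adjusted p = 0.136) against Control and -0.20 (adjusted p = 0.140) against CW by limma. The libraries are bulk RNA, in which fewer cells that express a gene and less RNA per cell cannot be told apart.

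The summed level of 5 fibroblast and smooth muscle markers, Col1a1, Col3a1, Acta2, Tagln and Pdgfrb, was higher in ESW. It was 67573 to 69449 CPM in ESW, 57378 to 60399 CPM in CW and 56877 to 59992 CPM in Control. Of all single tested genes, 25.6% did not overlap between ESW and Control and 28.3% did not between ESW and CW. Of the 5 markers 0 were at 0 in any library. Over all libraries Col1a1 ran from 30220 to 39191 CPM and Col3a1 from 14205 to 17569 CPM, against 723 to 909 CPM for Pdgfrb. The sum thus weighs the collagens most, and single markers were not compared between groups. The part of this sum in the Prdx4 result was not tested. The myoblast marker sum overlapped, at 51.8 to 58.2 CPM in ESW, 45.9 to 56.0 CPM in CW and 49.97 to 55.8 CPM in Control. The cardiomyocyte marker sum also overlapped, at 52.2 to 63.1 CPM in ESW, 53.7 to 64.2 CPM in CW and 52.8 to 55.1 CPM in Control.

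Among the 3 transcripts of Prdx4, the curated NM_053512.2 held 60.3% to 68.9% of the gene's TPM and the predicted XM_017602171.3 held 31.1% to 39.7%, while XM_006256951.5 held at most 0.278%. NM_053512.2 had 188, 183 and 191 TPM in ESW, 215, 216 and 243 TPM in CW, and 213, 197 and 245 TPM in Control. All 3 ESW libraries lay below the other 6 for this transcript. XM_017602171.3 had 111, 102 and 112 TPM in ESW, 97.3, 130.3 and 120.3 TPM in CW, and 126, 130 and 129 TPM in Control. For this second transcript ESW lay below Control, and CW replicate 1 lay below all ESW libraries. Reads that fit both transcripts were divided by estimate, so these levels are less certain than the gene sum, and they were not tested.

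**Figure D2:**
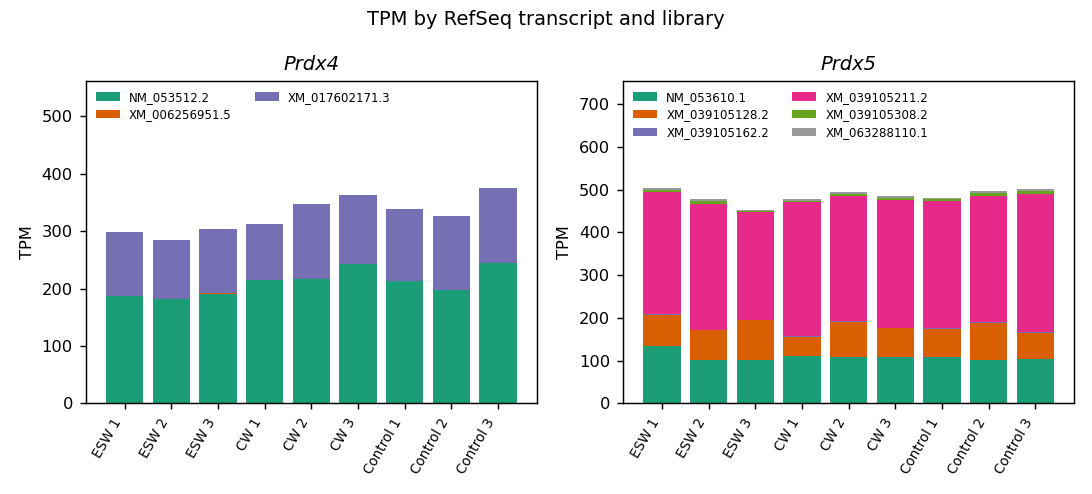
TPM of each transcript of Prdx4 (left) and Prdx5 (right), stacked to the gene sum, in each ESW, CW and Control library. In Prdx4 the NM_053512.2 bar is lower in all 3 ESW libraries than in the other 6; in Prdx5 the gene sums overlap between groups.

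The cytosolic member Prdx6, a 1-Cys peroxiredoxin that is reduced by glutathione with the help of glutathione S-transferase pi and also acts on phospholipids, lay in the opposite direction. It had 90.9, 87.7 and 90.2 CPM in ESW, 86.6, 83.8 and 82.6 CPM in CW, and 84.5, 86.6 and 83.4 CPM in Control. In CPM the ESW libraries were above the other 6. In TPM, ESW replicate 2 (226.7) lay below CW replicate 1 (228.1), so ESW and CW overlap on that scale. The log2 fold change was 0.08 against Control (SE 0.04, adjusted p = 0.242 by edgeR), or 5.61% (95% interval -0.261% to 11.8%). Against CW it was 0.09 (adjusted p = 0.186), or 6.24% (95% interval 0.277% to 12.6%). Prdx6 was not called in either. By CPM, groups that did not overlap were found for 2 of 6 members in each ESW comparison, Prdx4 and Prdx6. The share of all tested genes was 25.6% against Control and 28.3% against CW.

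The remaining cytosolic members were not called. Prdx1 had 366, 349 and 341 CPM in ESW, 360.2, 356 and 389 CPM in CW, and 352, 367 and 377 CPM in Control, and Prdx2 had 242, 244 and 235 CPM in ESW, 241, 259 and 260.2 CPM in CW, and 242, 250.2 and 259 CPM in Control. Their groups overlap. In ESW against Control the log2 fold changes were -0.05 for Prdx1 (adjusted p = 0.481 by edgeR) and -0.06 for Prdx2 (adjusted p = 0.437), and in ESW against CW they were -0.07 (adjusted p = 0.372) and -0.08 (adjusted p = 0.264).

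Mitochondrial Prdx3 had 76.2, 77.9 and 80.5 CPM in ESW, 77.1, 80.9 and 84.1 CPM in CW, and 78.3, 81.7 and 83.1 CPM in Control. It differed by -0.05 from both Control (adjusted p = 0.522 by edgeR) and CW (adjusted p = 0.565). Prdx5 had 179, 164 and 159 CPM in ESW, 166, 171 and 172 CPM in CW, and 167, 178 and 180.4 CPM in Control, with log2 fold changes of -0.07 against Control (adjusted p = 0.390) and -0.02 against CW (adjusted p = 0.815). The groups overlap for both genes. Of the 6 transcripts of Prdx5, XM_039105211.2 held 55.8% to 65.3%, NM_053610.1 20.2% to 26.8% and XM_039105128.2 9.02% to 20.5% of its TPM. Prdx1, Prdx3 and Prdx6 have 1 transcript each in the tables, and in Prdx2 NM_017169.2 held 86.9% to 90.1%.

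The 5 members not called had 95% intervals that together ran from -10.7% to 11.8% in ESW against Control and from -10.5% to 12.6% in ESW against CW, which bounds their differences but does not show that they are equal. In both comparisons, which share the ESW libraries, 5 of 6 log2 fold changes were negative. Of all 14706 tested genes, 7740 were negative against Control and 7426 against CW. The median over the family was -0.06, beside -0.01 against Control and -0.00 against CW over all tested genes. Prdx5 in ESW against CW turned to 0.01 without ESW replicate 3.

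**Figure D3:**
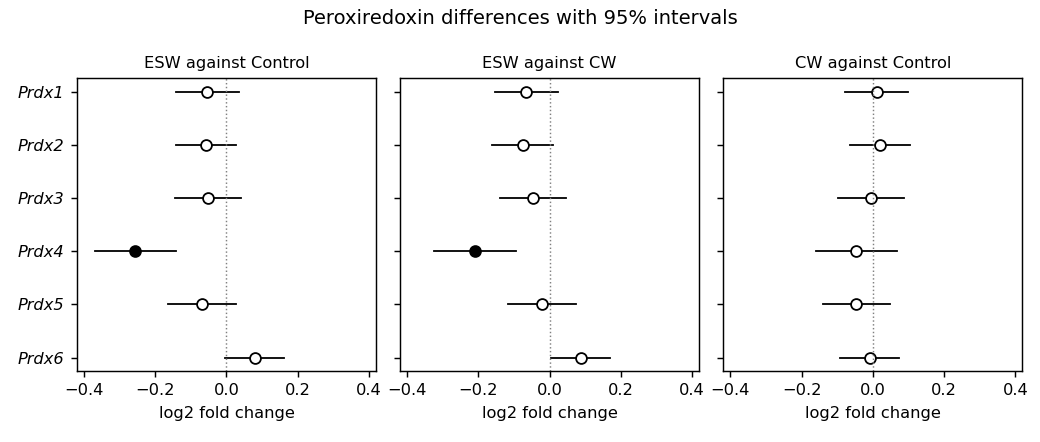
Log2 fold change of the 6 peroxiredoxins in the 3 comparisons among ESW, CW and Control, with 95% intervals and filled symbols for an adjusted p below 0.05. Prdx4 is the filled symbol in both ESW comparisons, at -0.26 and -0.21, and CW against Control has none.

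Control water against no treatment gave no called member. The log2 fold changes of CW against Control were 0.01 for Prdx1, 0.02 for Prdx2, -0.00 for Prdx3, -0.05 for Prdx4, -0.05 for Prdx5 and -0.01 for Prdx6, with adjusted p of 0.806 to 0.985 by edgeR. The 95% intervals ran from -10.5% to 7.49%. Of the 6 members 0 were called by edgeR, DESeq2 or limma-voom and 0 had an unadjusted p under 0.05, beside 0.177% of all tested genes called (26 genes, 0.0272% higher and 0.15% lower). The groups overlapped for all 6 members, while they did not overlap for 14.7% of all tested genes. The sign of these near-zero differences varied between alternatives for 5 members. For Prdx3 and Prdx6 it turned with the processing and on leaving out 1 library. For Prdx1, Prdx2 and Prdx4 it turned only on leaving out 1 library.

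Genes that serve the peroxiredoxins or act beside them were read from a list of 29. It holds reductants, repair enzymes and regulators in the cytosol or nucleus, and their mitochondrial counterparts. Thiol oxidases, disulfide isomerases and the peroxidases Gpx7 and Gpx8 of the ER are also in it, with a further thioredoxin reductase, Txnrd3. All 29 were tested. In ESW against Control 2 were called higher and 3 lower, beside the 8.04% of all genes. In ESW against CW 1 was called higher and 2 lower, beside 8.14%. The list was chosen with earlier results of these data known, so these counts are descriptions and not evidence of enrichment. The median log2 fold change of the list was 0.02 against Control and 0.00 against CW. In CW against Control 0 of 29 were called by edgeR, DESeq2 or limma-voom and 1 had an unadjusted p under 0.05, with log2 fold changes from -0.09 to 0.26 and a lowest adjusted p of 0.257.

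Of the 12 cytosolic or nuclear partners, Txnrd1, the reductase that recycles cytosolic thioredoxin, had 200.2, 201 and 195 CPM in ESW, 189, 174 and 179 CPM in CW, and 183, 180.2 and 176 CPM in Control. The ESW libraries were above all others. Txnrd1 rose by 0.14 on the log2 scale in ESW against Control (SE 0.04, adjusted p = 0.0262 by edgeR) and by 0.14 against CW (adjusted p = 0.0340). Gstp1, the pi-class glutathione S-transferase that is a partner of Prdx6, had 325, 350.2 and 346 CPM in ESW, 305, 318 and 334 CPM in CW, and 290, 318 and 305 CPM in Control. It rose by 0.16 in ESW against Control (adjusted p = 0.0266) and stood at 0.09 against CW, not called (adjusted p = 0.199). ESW lay above Control and overlapped CW.

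Txndc17, a small thioredoxin-like protein reduced by Txnrd1, had 53.6, 57.0 and 53.1 CPM in ESW, 59.1, 60.6 and 60.9 CPM in CW, and 58.8, 61.4 and 63.9 CPM in Control. It fell by 0.17 on the log2 scale in ESW against Control (adjusted p = 0.0284 by edgeR) and was at -0.14 against CW, not called (adjusted p = 0.0679), although ESW lay below both. It was called against CW in 4 of 19 alternatives: without Control replicate 1 (adjusted p = 0.0423), under a filter of 1 CPM (0.0399), with only the 2 groups compared (0.0439) and with effective length offsets, where the log2 fold change was -0.22 (0.0214). Without Control replicate 2 the adjusted p against Control was 0.0809 for Txnrd1 and 0.0882 for Txndc17, and without Control replicate 3 it was 0.107 for Txnrd1, 0.0710 for Gstp1 and 0.143 for Txndc17. Without Control replicate 1 it was 0.0783 for Gstp1. Leaving out ESW replicate 1, 2 or 3 gave 0.0624, 0.0849 and 0.0658 for Txnrd1; leaving out ESW replicate 2 or 3 gave 0.104 and 0.128 for Gstp1, and leaving out ESW replicate 1 or 3 gave 0.0813 and 0.133 for Txndc17. The Txnrd1 call against CW was lost without any 1 of ESW replicates 1 to 3 or CW replicates 2 and 3, with adjusted p up to 0.175.

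Thioredoxin itself, Txn1, had 114, 96.4 and 99.2 CPM in ESW, 111, 115 and 126 CPM in CW, and 106, 114 and 123 CPM in Control. Its log2 fold changes were -0.15 against Control (adjusted p = 0.165 by edgeR) and -0.18 against CW (adjusted p = 0.0763), not called in either. Without ESW replicate 1 Txn1 was called lower, at -0.22 against Control (adjusted p = 0.0285) and -0.26 against CW (adjusted p = 0.0127). It was also called against Control with no filter on low counts (adjusted p = 0.0244), and against CW with no filter (0.0030), by DESeq2 (0.0486), with only the 2 groups compared (0.0389) and without Control replicate 1 (0.0412), so that 2 and 5 of 19 alternatives called it. Srxn1, the sulfiredoxin, had 35.4, 38.1 and 41.2 CPM in ESW, 38.2, 35.4 and 33.6 CPM in CW, and 35.5, 36.3 and 34.6 CPM in Control, with 0.11 against Control (adjusted p = 0.298). Txnip, an inhibitor of thioredoxin, had 73.5, 80.9 and 75.3 CPM in ESW, 80.9, 77.8 and 72.4 CPM in CW, and 78.3, 82.2 and 73.3 CPM in Control, with -0.02 against Control (adjusted p = 0.844). For Srxn1 and Txnip the groups overlap.

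In mitochondria 0 of 4 partners were called, beside 8.04% of all tested genes against Control and 8.14% against CW, so a count of 0 among 4 genes is close to the background. Txn2, the thioredoxin that serves Prdx3, had 89.9, 80.5 and 82.3 CPM in ESW, 86.02, 96.0 and 94.2 CPM in CW, and 84.2, 92.8 and 90.3 CPM in Control, with -0.08 against Control (adjusted p = 0.367 by edgeR) and -0.13 against CW (adjusted p = 0.129). Txnrd2, its reductase, lay between 12.8 and 16.5 CPM in ESW, 15.0 and 18.4 CPM in CW, and 15.5 and 17.5 CPM in Control, with -0.11 against Control (adjusted p = 0.537) and -0.16 against CW (adjusted p = 0.335).

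Among the 12 ER partners, 2 were called, both lower in ESW. This held against Control, where 3.28% of all tested genes were called lower, and against CW, where 3.99% were. As the list was chosen with earlier results known, the count of 2 describes these genes only. Gpx8, a peroxidase anchored in the ER membrane, had 151, 157 and 151 CPM in ESW, 165, 182 and 189 CPM in CW, and 173, 181 and 201 CPM in Control. It fell by 0.27 on the log2 scale in ESW against Control (adjusted p = 0.0038 by edgeR) and by 0.22 against CW (adjusted p = 0.0146). Txndc12, a thioredoxin-like oxidoreductase of the ER lumen, had 76.5, 77.2 and 78.7 CPM in ESW, 80.4, 89.7 and 93.1 CPM in CW, and 87.9, 94.2 and 99.0 CPM in Control. Txndc12 fell by 0.28 in ESW against Control (adjusted p = 0.0033) and by 0.18 against CW (adjusted p = 0.0395). For both genes each ESW library was below all 6 others. The other 10 ER partners, among them the disulfide isomerases P4hb, Pdia3, Pdia4 and Pdia6 and the oxidases Ero1a and Ero1b, were not called, and the median of the 12 was 0.01 against Control and -0.01 against CW. Against CW, Gpx8 lost its call without ESW replicate 3, CW replicate 2 or CW replicate 3 (adjusted p 0.0698, 0.0754 and 0.101), and Txndc12 lost it without Control replicate 2, any ESW replicate, or CW replicate 2 or 3 (adjusted p up to 0.202). Against Control both calls held without any 1 library. On log2(TPM + 1) none of the partner calls held by limma, with adjusted p of 0.0648 for Gstp1 to 0.231 for Gpx8 against Control and 0.149 for Gpx8 to 0.164 for Txnrd1 against CW. With offsets for effective length in edgeR, Txnrd1 (0.108), Txndc17 (0.164) and Gpx8 (0.109) lost their calls against Control, and Txnrd1 (0.0665), Txndc12 (0.0875) and Gpx8 (0.0687) lost theirs against CW.

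**Figure D4:**
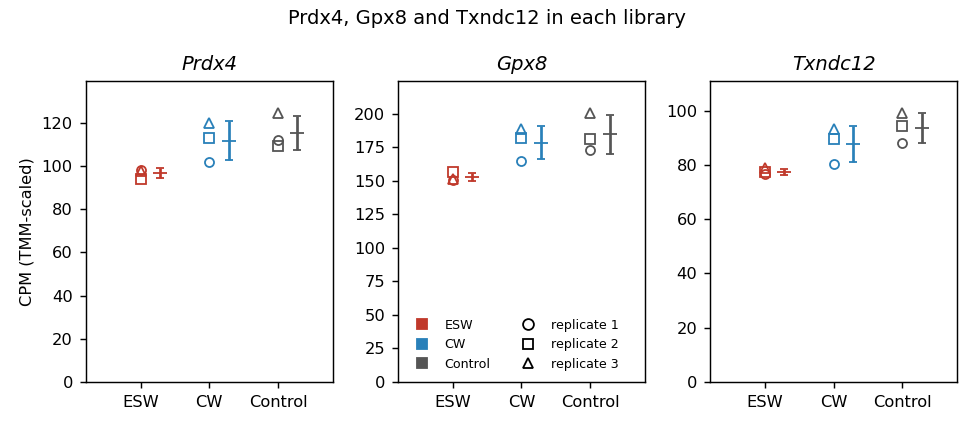
CPM of Prdx4, Gpx8 and Txndc12 in each ESW, CW and Control library, with marker shape for the replicate number and bars for the mean and SD of 3 libraries. In each panel the 3 ESW libraries lie below the 3 CW and 3 Control libraries.

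**Figure D5:**
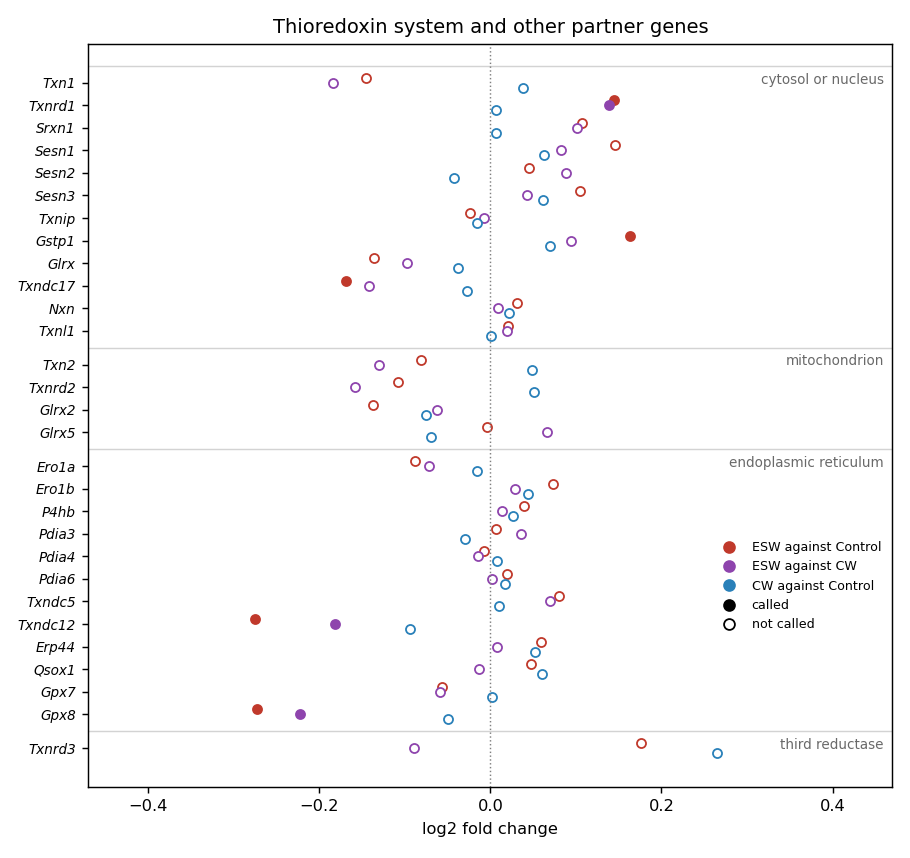
Log2 fold change of the 29 partner genes by compartment in ESW against Control (red), ESW against CW (purple) and CW against Control (blue), with filled circles for an adjusted p below 0.05. Filled circles mark Txnrd1, Gstp1, Txndc17, Txndc12 and Gpx8, and none belongs to CW against Control.

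In the 24 partner genes with a promoter window, 4 held the motif of the windows shown above, Sesn2, Gstp1, Txndc17 and Txndc5, beside the 12.06% of all windows. The window of Gstp1 holds TGACTCAGC, the same 9 letters as that of Prdx1, from 61 bases before the start.

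For each member, the 2 protein-coding genes with the closest course over the 9 libraries were taken from 8840 candidates. The measure was the root mean square difference of centred log2 CPM. Candidates averaged 10 CPM or more, and members and symbols that start with LOC, RGD or AABR were left out. Prdx4 was closest to Lcor, a nuclear receptor corepressor (0.0289), and to Gpx8 (0.0415). Prdx6 was closest to Eno1, a glycolytic enolase (0.0149), and to Psmd11, a proteasome subunit (0.0161). The nearest genes were Dnaja2 (0.0184) and Dnlz (0.0216) for Prdx1, Arl6ip5 (0.0198) and Tsfm (0.0233) for Prdx2, Mrpl41 (0.0232) and Inpp5f (0.0245) for Prdx3, and Vps29 (0.0236) and Sod1 (0.0263) for Prdx5. All genes within a library share its depth and scaling. With this many candidates some close courses are found for any gene, so these are descriptions.

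In the RefSeq gene table Prdx1 has 7 pseudogenes, Prdx6 has 3 and Prdx3 has 1. The pseudogenes were not analysed here, and whether they share reads with their parent genes was not tested. The copy Prdx1l1 had 1.4 to 11.1 estimated reads per library, against 9719 to 18483 for Prdx1.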

How the data were processed

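RNA of 9 H9c2(2-1) libraries was extracted with RNeasy Plus Mini and sequenced on a NovaSeq X Plus, per the labels. Per the submitters' processing notes, Salmon 1.10.3 and DESeq2 were used. The deposited tables hold, per the file headers, an estimated count of reads and a TPM for each of 114122 transcripts. The deposited effective length is another value, a transcript length in bases corrected by Salmon. Bias options, transcript set and build are not given in the sources used here. Promoter windows are from RefSeq, GRCr8. Protein sequences were not analysed here.

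Estimated counts and TPM were summed per gene symbol (all transcripts matched to the GRCr8 gene table, 36856 genes) and counts rounded. The test was edgeR 4.0.16 in R 4.3.3 (glmQLFit, TMM, filterByExpr, all 9 libraries in 1 fit with 6 residual degrees of freedom, 14706 genes, Benjamini-Hochberg). CPM are TMM-scaled, log2 CPM use a prior count of 2, and the common biological coefficient of variation was 4.84%. Alternatives used DESeq2 1.42.0, limma 3.58.1 (voom, and trend on log2(TPM + 1) and log2(TPM + 0.1)), other filters and scalings, effective length offsets and leaving out each library. The test was run on simulated counts with 200 changed genes, drawn gene by gene with the means and spreads of this same fit. At folds of 1.2, 1.5, 2 and 3 it recovered 54%, 88%, 90% and 100% for ESW against Control, 66%, 86%, 94% and 98% for ESW against CW, and 56%, 90%, 92% and 100% for CW against Control. Of unchanged genes, 10 of 14320, 19 of 14292 and 9 of 14310 were called. Counts drawn from the fit itself cannot show how well the fit suits the real libraries.

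Named were the 6 members, every partner gene called in any contrast, Txn1, Txnrd1, Srxn1, Txn2, Txnrd2 and Txnip, and for each member the 2 genes of closest course. The members and lists were chosen with earlier results of these data known. Libraries within a group differed beyond counting noise (chi-square per degree of freedom 3.47 to 8.65), and each counted once. This spread does not show whether they are separate cultures.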

Additional observations from a re-analysis of the deposited data

How the results depend on the processing

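Prdx4 kept its direction in ESW against Control and in ESW against CW under all 19 alternatives, with calls in 16 and 12 of them and log2 fold changes of -0.29 to -0.20 and -0.27 to -0.16. The replicate numbers did not pair the libraries (correlations of same-numbered libraries -0.118 to 0.0402). With a replicate block 971 genes were called in ESW against Control, 949 in ESW against CW and 25 in CW against Control, and Prdx4 stood at -0.25 (adjusted p = 0.0073) and -0.21 (adjusted p = 0.0222).

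Peroxiredoxins called in ESW against Control numbered 0 on log2(TPM + 1) and log2(TPM + 0.1), and 0 to 1 leaving out 1 library. Against CW they numbered 0 with offsets and on both TPM scales, and 0 to 1 leaving out 1 library. Partner genes called against Control numbered 6 without a filter and by DESeq2, 2 with offsets and 0 on both TPM scales, and 2 to 5 leaving out 1 library. Against CW they numbered 4 without a filter, under the 1 CPM filter and by DESeq2, 1 with offsets, 5 with only the 2 groups compared, 0 on both TPM scales, and 0 to 5 leaving out 1 library.

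Over all genes, ESW against Control gave 1183 calls, 440 with offsets, 86 on log2(TPM + 1), 149 on log2(TPM + 0.1) and 397 to 1544 leaving out 1 library (534, 590 and 397 without Control replicate 2, Control replicate 3 and ESW replicate 3). ESW against CW gave 1197, 0 on log2(TPM + 1), 18 on log2(TPM + 0.1) and 314 to 1486 leaving out 1 library (571, 314, 407 and 474 without ESW replicates 2 and 3 and CW replicates 2 and 3). CW against Control gave 26, then 273 without a filter, 80 by DESeq2, 1 with offsets, 16 with only the 2 groups compared, 0 on both TPM scales, and 5 to 51 leaving out 1 library.

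Near-zero log2 fold changes turned sign. In CW against Control Prdx3 was 2.04e-05 under the 1 CPM filter, 0.0112 with offsets, 0.0172 on log2(TPM + 1) and 0.0173 on log2(TPM + 0.1), and Prdx6 was 0.0269, 0.0343 and 0.0345 in the last 3 of these. Leaving out 1 library gave -0.0298 to 0.0350 for Prdx1, -0.00207 to 0.0539 for Prdx2, -0.0357 to 0.0252 for Prdx3, -0.0997 to 0.0125 for Prdx4 and -0.0278 to 0.00584 for Prdx6. Such ranges were -0.0719 to 0.0105 for Prdx5 and -0.0489 to 0.0283 for Txnip in ESW against CW, and -0.0662 to 0.0163 for Txnip and -0.172 to 0.00793 for Txnrd2 in ESW against Control. Where a call or a sign changed, the cause was not tested.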
